A study of Mus musculus with 30 samples.

Results

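A set of 8 long noncoding RNAs known in neurons, namely Meg3, Rian, Mirg, Malat1, Neat1, Miat, Snhg11 and Snhg14, was followed in the hippocampus of mice kept on 5 diets. They were taken by gene symbol, 8 of the 20227 symbols in the deposited table, and together they have 41 of its 46109 rows, each row being 1 transcript. There were 30 mice, all 15 months old, with 3 females and 3 males on each diet, and the hippocampus was taken whole. The groups were ChowCR, 5% P, 10% P, 15% P and Chow, and the title of the series is the ground for reading CR as caloric restriction and P as protein. The labels name no strain, genotype or diet composition and give no condition other than age that all groups share. Values are FPKM (fragments scaled to transcript length and library size), and a gene's level is the sum over its listed transcripts. A transcript without a value in a library is called not listed, which is not the same as a level of 0.

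Long noncoding RNAs act as RNA and are not translated. Meg3, Rian and Mirg are transcribed one after another from the maternal copy of the imprinted Dlk1-Dio3 locus, and Rian carries small nucleolar RNAs and Mirg many microRNAs within its length. Malat1 collects in nuclear speckles, the stores of splicing factors, and Neat1 is the scaffold of paraspeckles, a neighbouring nuclear body. Miat, also called Gomafu, is a nuclear RNA of neurons that binds splicing factors. Snhg11 and Snhg14 are host genes of small nucleolar RNAs, and the long Snhg14 transcript silences the paternal copy of Ube3a in neurons.

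No diet moved any of the 8 RNAs past the threshold. The range of the 6 libraries overlapped that of Chow for 32 of 32 combinations of an RNA with ChowCR or a P diet. The share of all symbols with such an overlap was not counted, so this is a description and not a trait of these RNAs. Single libraries differed within each diet, and only for Malat1 was this spread large beside that of all symbols. Malat1 lay between 1.63 and 5.33 FPKM in 7 libraries and between 17.1 and 112 FPKM in the other 23. The transcripts that made up Meg3 also differed from library to library. Whether those of other genes differ as much was not counted.

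The 8 genes lie on 5 chromosomes of GRCm38, the assembly also called mm10, with coordinates from GENCODE M21. Meg3 (chr12:109541001-109571726), Rian (chr12:109603940-109661716) and Mirg (chr12:109729764-109749460) are on the plus strand in that order. Malat1 (chr19:5795690-5802672) and Neat1 (chr19:5824708-5845478) are neighbours on the minus strand of chromosome 19. Miat (chr5:112213228-112229395) and Snhg14 (chr7:59307924-59975759) are on the minus strand, and Snhg11 (chr2:158375638-158386145) is on the plus strand. The longest span, that of Snhg14, covers 667836 bases and runs antisense to Ube3a, and the sources used here do not state the strand setting with which reads were assigned. Reads of Snhg14 and of the genes it overlaps can therefore not be told apart with certainty.

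The libraries were selected on poly(A), and a polyadenylation hexamer shortly before the 3' end is the usual mark of an RNA that gets a poly(A) tail. The ends below are the last 60 bases of noncoding transcripts from GENCODE M21, read 5' to 3', with a polyadenylation hexamer (AATAAA or ATTAAA) in capitals where the last 40 bases hold one on the transcript's own strand. The first 4 are the leading transcripts of Malat1, Meg3, Mirg and Snhg14 that have one.
Malat1 ENSMUST00000172812: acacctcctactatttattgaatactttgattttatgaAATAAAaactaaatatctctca
Meg3 ENSMUST00000166636: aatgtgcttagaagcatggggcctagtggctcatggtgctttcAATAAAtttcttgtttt
Mirg ENSMUST00000182300: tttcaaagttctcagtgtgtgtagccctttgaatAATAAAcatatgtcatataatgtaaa
Snhg14 ENSMUST00000188976: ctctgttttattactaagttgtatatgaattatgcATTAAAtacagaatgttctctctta
The next 3 are leading transcripts without one, and the last is the short Neat1 transcript, which has one.
Meg3 ENSMUST00000143272: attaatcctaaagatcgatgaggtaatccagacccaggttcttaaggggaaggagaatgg
Neat1 ENSMUST00000173672: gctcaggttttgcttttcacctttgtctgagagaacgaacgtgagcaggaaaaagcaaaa
Rian ENSMUST00000182119: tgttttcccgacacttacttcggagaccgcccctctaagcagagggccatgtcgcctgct
Neat1 ENSMUST00000174287: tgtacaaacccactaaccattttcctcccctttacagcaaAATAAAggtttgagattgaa

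A hexamer was found at the end of 16 of the 41 transcripts, and at the end of 7 of the 13 that were tested. Of all 141767 transcripts of the annotation, 32.6% hold it in the same window. The match is a description of letters and does not show where the RNA ends in these mice. For 15 of the 41 transcripts the annotation holds another version of the transcript than the table, so the ends of those are of that version.

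Malat1 has a second 3' end, known from cell lines, at which RNase P cuts off a tRNA-like RNA and leaves an A-rich tract at the end of the long RNA. The window shown (chr19:5795920-5796019, minus strand) holds that tract, a run of 12 A from position 6674 to 6685 of the 6983-base transcript, in capitals, followed by the tRNA-like part.
Malat1 A-rich tract: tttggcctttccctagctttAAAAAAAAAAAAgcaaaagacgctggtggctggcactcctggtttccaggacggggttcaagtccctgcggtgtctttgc
The tract ends 298 bases before the annotated 3' end.

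The 3 RNAs of the Dlk1-Dio3 locus are also hosts of microRNAs, which shorten the life of target messages that pair with their seed, bases 2 to 8. By RefSeq, 3 mature microRNAs lie in the annotated span of Meg3, 6 in that of Rian and 26 in that of Mirg. A selection is shown to make plain what the hosts carry, with the seed in capitals, and it ends with a pair from Mirg that shares the seed GGUUGCC.
mmu-miR-770-3p (Meg3): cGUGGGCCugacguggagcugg
mmu-miR-370-3p (Rian): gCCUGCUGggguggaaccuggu
mmu-miR-134-5p (Mirg): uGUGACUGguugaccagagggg
mmu-miR-382-5p (Mirg): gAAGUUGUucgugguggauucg
mmu-miR-410-3p (Mirg): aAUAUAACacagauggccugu
mmu-miR-453 (Mirg): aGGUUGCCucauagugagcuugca
mmu-miR-496a-5p (Mirg): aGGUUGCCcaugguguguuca
The hairpins themselves were almost not seen in these libraries. Of the 313 values listed for Mirg's hairpins 308 were 0 and the highest was 0.104 FPKM, and of the 56 values of Rian's hairpins 55 were 0. No hairpin of Mirg or Rian lies within the span of a transcript that was tested, while for Meg3 1 hairpin does. The sums also hold untested transcripts whose spans include hairpins, among them ENSMUST00000182689 of Rian and ENSMUST00000181496 of Mirg. The levels below are of the host RNAs, and the mature microRNAs were not measured.

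Each library listed between 19681 and 21853 transcripts. The table gives no read counts. The steps between low values of single-exon genes, read as 1 covered base of a 100-base read, point to between 19.6 and 25.3 M fragments (M, 10 to the power 6) a library, with 42.9% to 81.8% of these values within 0.02 of a whole step. All 8 defining neuronal genes looked for (among them Snap25 and Syt1 of the synaptic vesicle machinery) were tested, with a summed level of 1145 to 1679 FPKM in ChowCR, 1200 to 1611 in 5% P, 1102 to 1682 in 10% P, 1191 to 1460 in 15% P and 1094 to 1871 in Chow. Oligodendrocyte, astrocyte and microglia genes were present as well, so the tissue is mixed, and whether a given RNA came from neurons was not measured. In such tissue fewer cells of a type and less RNA per cell cannot be told apart. Choroid plexus genes, led by Ttr, ranged from 40.9 to 8088 FPKM between libraries, and their part in the results was not tested except with Ttr as a covariate.

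Per length, the order of mean levels over the 30 libraries was Snhg11, Meg3, Malat1, Mirg, Rian, Snhg14, Neat1 and Miat. Snhg11 averaged 148 FPKM, rank 119 of the 4848 symbols tested, and was above Meg3 in 29 libraries. Meg3 averaged 59.95 FPKM (rank 413) and Malat1 53.1 FPKM (rank 475), and Meg3 was the higher of the pair in 17 of 30 libraries, so these neighbours could not be ordered. Mirg averaged 9.77 FPKM and Rian 7.33 FPKM, with Mirg the higher in 20 libraries.

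Snhg14 at 2.37 FPKM, Neat1 at 1.28 FPKM and Miat at 1.28 FPKM were among the lowest symbols tested, at ranks 4232, 4700 and 4701. Neat1 and Miat could not be ordered, with Neat1 higher in 19 of 30 libraries. All 8 were listed in every library and reached the minimum mean of 1 FPKM needed for the tests. Miat did so only with 15% P included. Its means were 0.732 FPKM in Chow, 0.811 in ChowCR, 1.01 in 5% P, 1.43 in 10% P and 2.42 in 15% P.

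**Figure D1:**
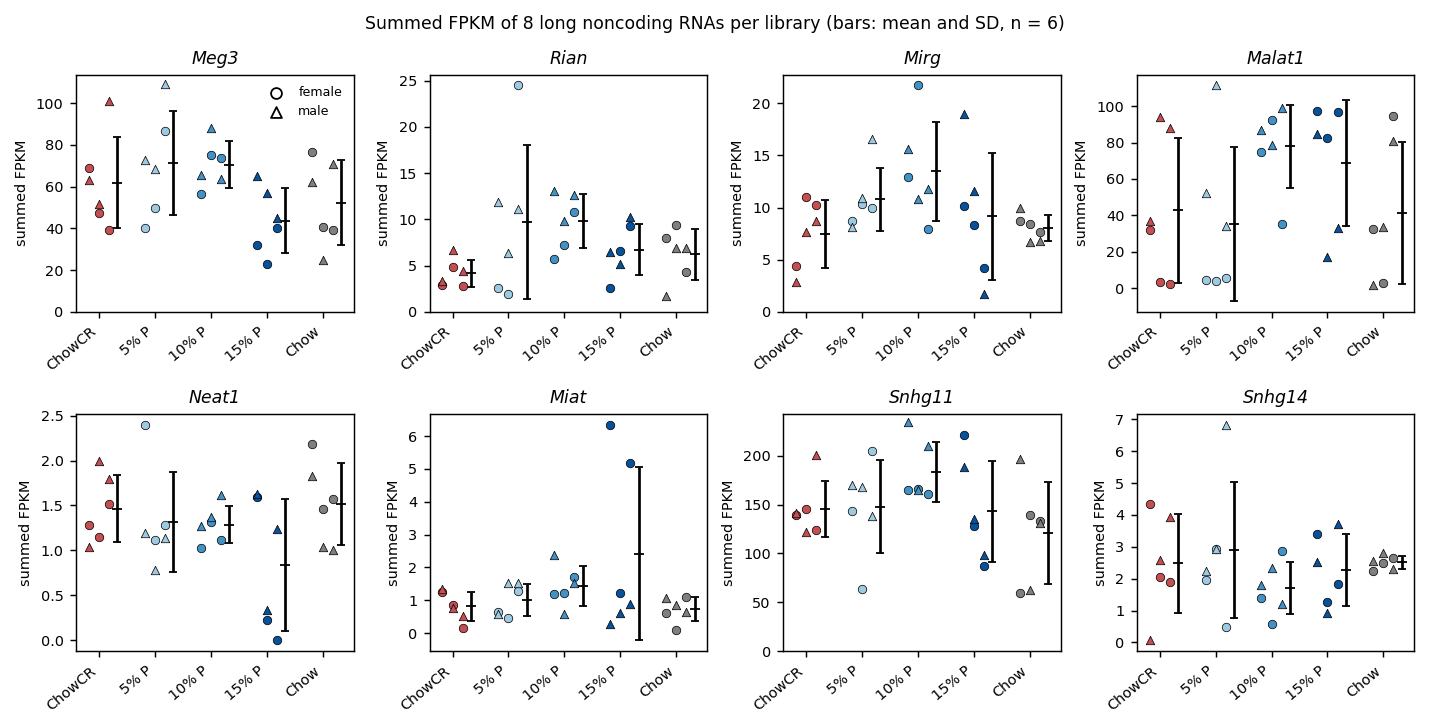
Summed FPKM of each RNA (vertical axes, linear) in the 6 libraries of each diet, with circles for females, triangles for males, and bars for the mean and SD (n = 6). The diets overlap in all 8 panels, and Malat1 has a group of libraries near 0 in ChowCR, 5% P and Chow but none in 10% P or 15% P.

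The first question is whether caloric restriction or a P diet changed the level of these RNAs relative to Chow. Tests were run with limma on log2(summed FPKM + 0.5) over all 4848 symbols, with sex as a covariate and Benjamini-Hochberg adjustment. In ChowCR against Chow 0 of 8 passed, where 0.0619% of all symbols did. In 5% P, 10% P and 15% P against Chow 0 of 8 passed in each, where 0% of all symbols did. An unadjusted p under 0.05 was reached by 0 of 8 in ChowCR, 0 in 5% P, 1 in 10% P and 1 in 15% P, and by 6.93%, 5.28%, 6.19% and 5.32% of all symbols in the same order. The same held per transcript, with 0 of 13 passing in each of the 4 comparisons, against 0.045% of the 4447 transcripts tested in ChowCR and 0% in the P diets. Simulated data for ChowCR against Chow had 200 changed symbols of 4848 and normal noise. There the procedure found 71.2% of symbols changed by 2 on the log2 scale, 41.8% of those changed by 1 and 19.1% of those changed by 0.5. A change of the smaller sizes would thus often be missed. The real comparison called 3 symbols, and with fewer true changes the adjustment is stricter, so these shares may be too high for the real data. They are averages over symbols, and for one as variable as Malat1 they would be lower.

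The direction differed between diets. In 10% P, 6 of the 8 were higher than in Chow, with a median log2 difference of 0.66 beside 0.01 over all symbols. In 5% P 5 were higher (median 0.30, beside 0.00 over all symbols), while in ChowCR and in 15% P 4 were higher and 4 lower, with medians of 0.03 and 0.02. Of all symbols, 51.8% were higher in 10% P, 50.4% in 5% P, 53.3% in ChowCR and 47.5% in 15% P. Miat, which met the minimum mean only with 15% P included, is counted among the 8. The 4 comparisons share the Chow libraries.

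**Figure D2:**
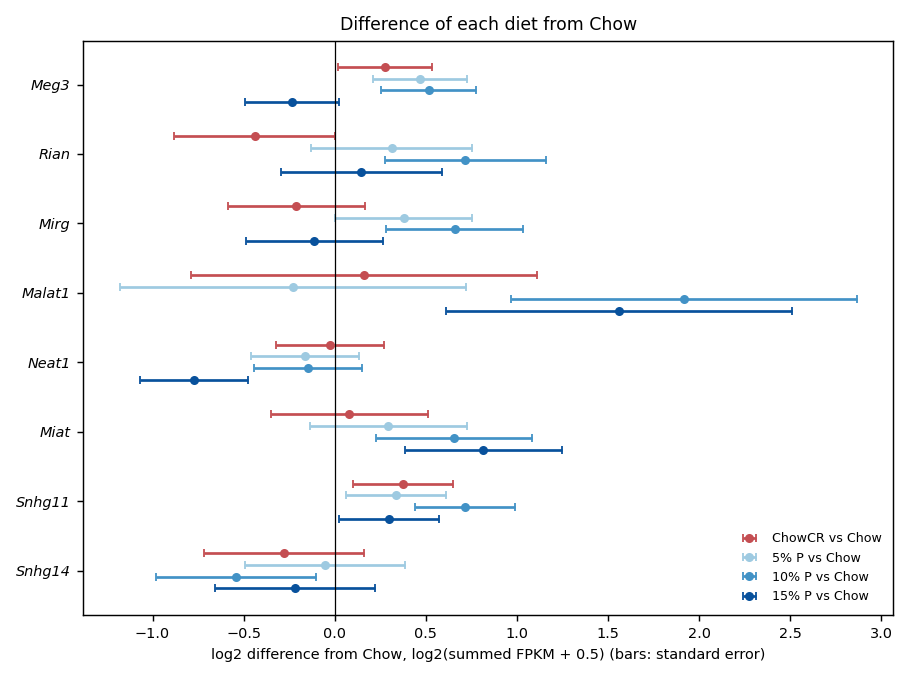
Log2 difference of each diet from Chow (horizontal axis, log2 of summed FPKM + 0.5), with the standard error as bars, for the 8 RNAs. Malat1 has the widest bars, and the 10% P points of Meg3, Rian, Mirg, Malat1, Miat and Snhg11 lie above 0 while those of Neat1 and Snhg14 lie below it.

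Meg3, the first RNA of the imprinted locus, is known as a growth-restraining RNA that binds chromatin regulators. It ranged from 39.4 to 101 FPKM in ChowCR (median 57.4), 40.3 to 109 in 5% P (70.5), 56.3 to 88.3 in 10% P (69.8), 23.2 to 65.3 in 15% P (42.5) and 24.7 to 76.8 in Chow (51.3). All 6 libraries of 10% P were above the Chow median and 2 of 6 of 15% P were, yet every diet overlapped Chow. Its log2 difference from Chow was 0.52 ± 0.26 (SE) in 10% P (limma, adjusted p = 0.79), 0.47 in 5% P (adjusted p = 0.93), 0.28 in ChowCR (adjusted p = 0.88) and -0.24 in 15% P (adjusted p = 0.95).

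Rian, the middle RNA of the locus and a host of box C/D small nucleolar RNAs, ranged from 2.79 to 6.67 FPKM in ChowCR (median 3.88), 1.88 to 24.5 in 5% P (8.76), 5.66 to 13.0 in 10% P (10.3), 2.61 to 10.3 in 15% P (6.49) and 1.73 to 9.38 in Chow (6.93). None of the 6 ChowCR libraries was above the Chow median and 5 of the 6 10% P libraries were. The log2 difference from Chow was -0.44 ± 0.44 (SE) in ChowCR (limma, adjusted p = 0.88) and 0.72 in 10% P (adjusted p = 0.81). The mean of the 3 P diets stood 0.83 above ChowCR (SE 0.36, unadjusted p = 0.0299), and it did not pass (limma, adjusted p = 0.65). In that comparison 0 of the 8 RNAs passed, where 0% of all symbols did.

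Mirg, the last and most microRNA-rich of the 3, ranged from 2.87 to 10.97 FPKM in ChowCR (median 8.18), 8.12 to 16.6 in 5% P (10.1), 7.97 to 21.7 in 10% P (12.3), 1.73 to 19.01 in 15% P (9.21) and 6.65 to 9.97 in Chow (8.02). The Chow libraries were the most alike, with an SD of 1.26 FPKM, against 6.07 FPKM in 15% P. All 6 libraries of 5% P lay above the Chow median, though not all above the Chow range. The log2 difference from Chow was 0.66 ± 0.38 (SE) in 10% P (limma, adjusted p = 0.79), and 0.38 in 5% P (adjusted p = 0.94).

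The protein content of the 3 P diets is ordered, so a slope per 5 percentage points was fitted in their 18 libraries. For Meg3 it was -0.35 ± 0.12 (SE) on the log2 scale, at means of 71.2 ± 25.02 FPKM in 5% P, 70.6 ± 11.1 in 10% P and 43.7 ± 15.6 in 15% P (SD, n = 6 each). Its unadjusted p was 0.00826, the smallest of the 8, and the adjusted p was 0.96 (limma). Among the tested Meg3 transcripts, each listed in all libraries, the slope ran from -0.38 ± 0.42 (SE) for ENSMUST00000146701 to 0.13 ± 0.51 (SE) for ENSMUST00000143272. The sum also holds transcripts listed in no 15% P library. ENSMUST00000129245 stood at 82.1 FPKM in 5% P 5 and 27.6 FPKM in 5% P 6. ENSMUST00000124106 was at 27.9 FPKM in 5% P 6, and ENSMUST00000128178 at 52.0 FPKM in 10% P 3. Their part in the slope of the sum was not tested. Malat1 had a slope of 0.90 ± 0.39 (SE) (limma, adjusted p = 0.96). In the trend 0 of 8 passed, where 0% of all symbols did, and 2 of 8 had an unadjusted p under 0.05, as did 4.27% of all symbols.

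Neat1 exists as a short polyadenylated RNA and a long one that builds paraspeckles and ends without a poly(A) tail. Nearly all of the signal was assigned to the long transcript, of 20771 bases, at 1.26 FPKM on average. The short one was listed in 9 libraries at 0.0821 FPKM on average. The short transcript lies within the span of the long one, which is a single exon, so most of its reads would match both. The libraries were also selected on poly(A). Which form the signal came from can therefore not be told from these values. Summed Neat1 ranged from 1.04 to 1.995 FPKM in ChowCR (median 1.3997), 0.784 to 2.40 in 5% P (1.17), 1.03 to 1.62 in 10% P (1.30), 0 to 1.63 in 15% P (0.787) and 1.0 to 2.183 in Chow (1.52).

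The spread in 15% P comes from 3 libraries, at 0, 0.228 and 0.335 FPKM, while its other 3 lay between 1.24 and 1.63 FPKM. The log2 difference of 15% P from Chow was -0.77 ± 0.29 (SE), at an unadjusted p of 0.0146, and it did not pass (limma, adjusted p = 0.80). The value of 0 is listed as such and may be a failed estimate.

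Malat1 was the most variable of the 8 beyond diet and sex, with a residual SD of 1.70 on the log2 scale, larger than that of 91.4% of symbols (median 0.59). It is nearly all 1 transcript of 1 exon and 6983 bases, ENSMUST00000172812, which was listed in all 30 libraries. Of the other annotated Malat1 transcripts, 1 was listed in 3 libraries and 1 in none. No row named by location overlaps the gene.

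In ChowCR the Malat1 level was 2.44 to 94.3 FPKM (median 34.2), in 5% P 3.69 to 112 (19.7), in 10% P 35.2 to 99.2 (82.9), in 15% P 17.1 to 97.6 (83.6) and in Chow 1.63 to 94.8 (33.2). Ordered by level and parted at steps above 1.4-fold, 1 library stood at 1.63 FPKM and 6 at 2.44 to 5.33. Above them, 1 stood at 17.1, 7 at 31.8 to 36.6, 1 at 52.0 and 14 at 74.7 to 112. The step between the 7 lowest and the next library was 3.20-fold, and no other step was above 1.87-fold.

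The 7 lowest libraries were 2 of ChowCR, 3 of 5% P, 0 of 10% P, 0 of 15% P and 2 of Chow, and 6 of the 7 were of females. In 5% P the 3 females had 3.69, 4.17 and 5.33 FPKM and the 3 males 34.1, 52.0 and 112, without overlap. ChowCR had no overlap either, with females at 2.44 to 31.8 FPKM and males at 36.6 to 94.3. The sexes overlapped in 10% P, 15% P and Chow. In 15% P females were the higher by median, at 82.3, 96.8 and 97.6 FPKM, with males at 17.1, 33.0 and 84.9. The share of all symbols that separate the sexes within a diet was not counted. The diet effect on Malat1 differed between the sexes at an unadjusted p of 0.0186 and did not pass for the interaction (limma, adjusted p = 0.92, with 4 of 4848 symbols passing).

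The 7 lowest libraries listed 20545 to 21853 transcripts (median 21017), and the other 23 listed 19681 to 21682 (median 20945). They were estimated at 22.4 to 24.4 M fragments (median 23.5), against 19.6 to 25.3 M (median 22.7) in the other 23. Neat1, the neighbour of Malat1 and also nuclear, stood at 1.12 to 2.40 FPKM in the 7, and Meg3 at 39.4 to 86.8 FPKM. Ttr of the choroid plexus had a median of 258 FPKM in the 7 (8.40 to 7513), beside 75.4 in the other 23 (7.16 to 6558). Neuronal Snap25 had a median of 407 FPKM in the 7 (318 to 1034), beside 563 in the other 23 (296 to 760). Since the 7 were picked by their Malat1 level, these values are given as a description, and their part in the Malat1 level was not tested.

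**Figure D3:**
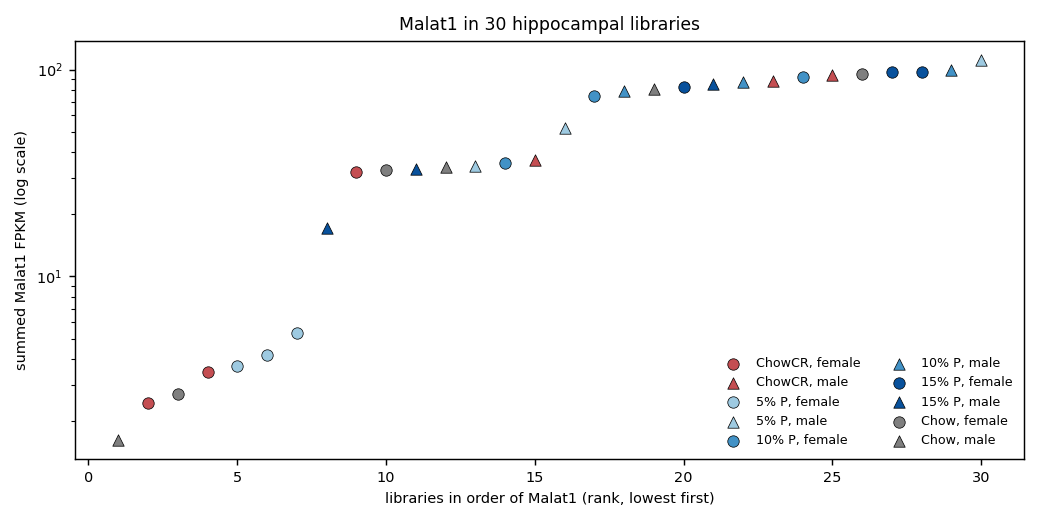
Summed Malat1 FPKM (vertical axis, log scale) of the 30 libraries in order of level (horizontal axis), coloured by diet, with circles for females and triangles for males. The 7 libraries at 1.63 to 5.33 FPKM lie below a gap of 3.20-fold and hold no 10% P or 15% P library.

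Between diets, Malat1 did not pass. Its log2 difference from Chow was 1.91 ± 0.95 (SE) in 10% P (limma, adjusted p = 0.79), 1.56 in 15% P (adjusted p = 0.92), -0.23 in 5% P and 0.16 in ChowCR. At means of 77.9 ± 22.7 FPKM in 10% P and 41.1 ± 39.1 FPKM in Chow (SD, n = 6 each), the Chow SD is nearly as large as its mean. Leaving out 1 library at a time moved the 10% P difference between 1.12 and 2.51.

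Miat, the splicing-factor-binding RNA, was found through 2 short transcripts only, neither of them listed in all 30 libraries. ENSMUST00000182258 was listed in 26 and ENSMUST00000182699 in 26. The summed level was 0.162 to 1.34 FPKM in ChowCR (median 0.812), 0.466 to 1.54 in 5% P (0.970), 0.571 to 2.37 in 10% P (1.37), 0.266 to 6.35 in 15% P (1.04) and 0.101 to 1.11 in Chow (0.754).

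The high end of 15% P for Miat is 2 female libraries, at 5.18 and 6.35 FPKM, and the other 4 were at 0.266 to 1.21 FPKM. Miat met the minimum mean for testing only through this diet, so its tests are not independent of the filter. The log2 difference of 15% P from Chow was 0.82 ± 0.43 (SE) (limma, adjusted p = 0.91). In males alone it was -0.35, and the diet effect differed between the sexes at an unadjusted p of 0.0171 without passing (limma interaction, adjusted p = 0.92).

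Snhg11, a neuron-enriched host gene of a small nucleolar RNA, was the most abundant of the 8. It ranged from 122 to 201 FPKM in ChowCR (median 141), 63.5 to 205 in 5% P (156), 161 to 234 in 10% P (165), 87.2 to 221 in 15% P (132) and 59.8 to 197 in Chow (132). All 6 libraries of 10% P lay above the Chow median, and the lowest of them, at 161 FPKM, was below the highest Chow library. The log2 difference of 10% P from Chow was 0.71 ± 0.27 (SE), at an unadjusted p of 0.0153, and did not pass (limma, adjusted p = 0.68).

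The leading Snhg11 transcript, ENSMUST00000109488, is annotated as protein coding in the annotation used here and averaged 120 FPKM. It ranged from 31.7 to 205 FPKM. The second, ENSMUST00000149303, annotated as a target of nonsense-mediated decay, averaged 24.3 FPKM. In library 5% P 5 it stood at 75.6 FPKM, above its leading partner at 60.5 FPKM.

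Snhg14, the antisense transcript of Ube3a, was read through 1 transcript at the end of the gene's span nearest its start, ENSMUST00000188976 (chr7:59969577-59974431). Summed Snhg14 was 0.0644 to 4.33 FPKM in ChowCR (median 2.32), 0.497 to 6.83 in 5% P (2.58), 0.579 to 2.86 in 10% P (1.60), 0.925 to 3.71 in 15% P (2.17) and 2.25 to 2.82 in Chow (2.51). The 6 Chow libraries were close together, with an SD of 0.208 FPKM, against 1.54 in ChowCR, 2.12 in 5% P, 0.820 in 10% P and 1.13 in 15% P. The difference in spread was not tested.

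The log2 difference of Snhg14 from Chow was -0.54 ± 0.44 (SE) in 10% P (limma, adjusted p = 0.86), -0.28 in ChowCR, -0.06 in 5% P and -0.22 in 15% P. Rows that the authors' table names only by location also lie in the Snhg14 span, in libraries of ChowCR and the P diets at 2.37 to 12.7 FPKM and in no Chow library. These rows were also added to the sums, a choice made after seeing the data, and counted as 0 where not listed. With no such row in Chow, the addition could only raise the other diets against it. The difference became 0.79 in ChowCR, 1.14 in 5% P, 0.75 in 10% P and 0.85 in 15% P, and none passed. The turn in direction came with these added rows and is not read as a diet difference. Why no Chow library lists such a row was not tested.

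How a gene's signal was divided among transcripts also differed between libraries. Of the 41 transcripts, 15 were listed in all 30 libraries and 1 in none, and 13 were tested. Transcripts listed in every library held 82.7% of the summed FPKM of Meg3, 88.4% of Mirg, 100.0% of Malat1, 98.1% of Neat1, 98.9% of Snhg11 and 97.97% of Snhg14. They held 19.4% of Rian and 0% of Miat, so the sums of these 2 depend most on which transcripts a library lists. Meg3 sums depend on it as well in single libraries. In 5% P 5, ENSMUST00000129245, listed in 4 libraries, held 82.1 FPKM of a Meg3 sum of 109 FPKM.

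**Figure D4:**
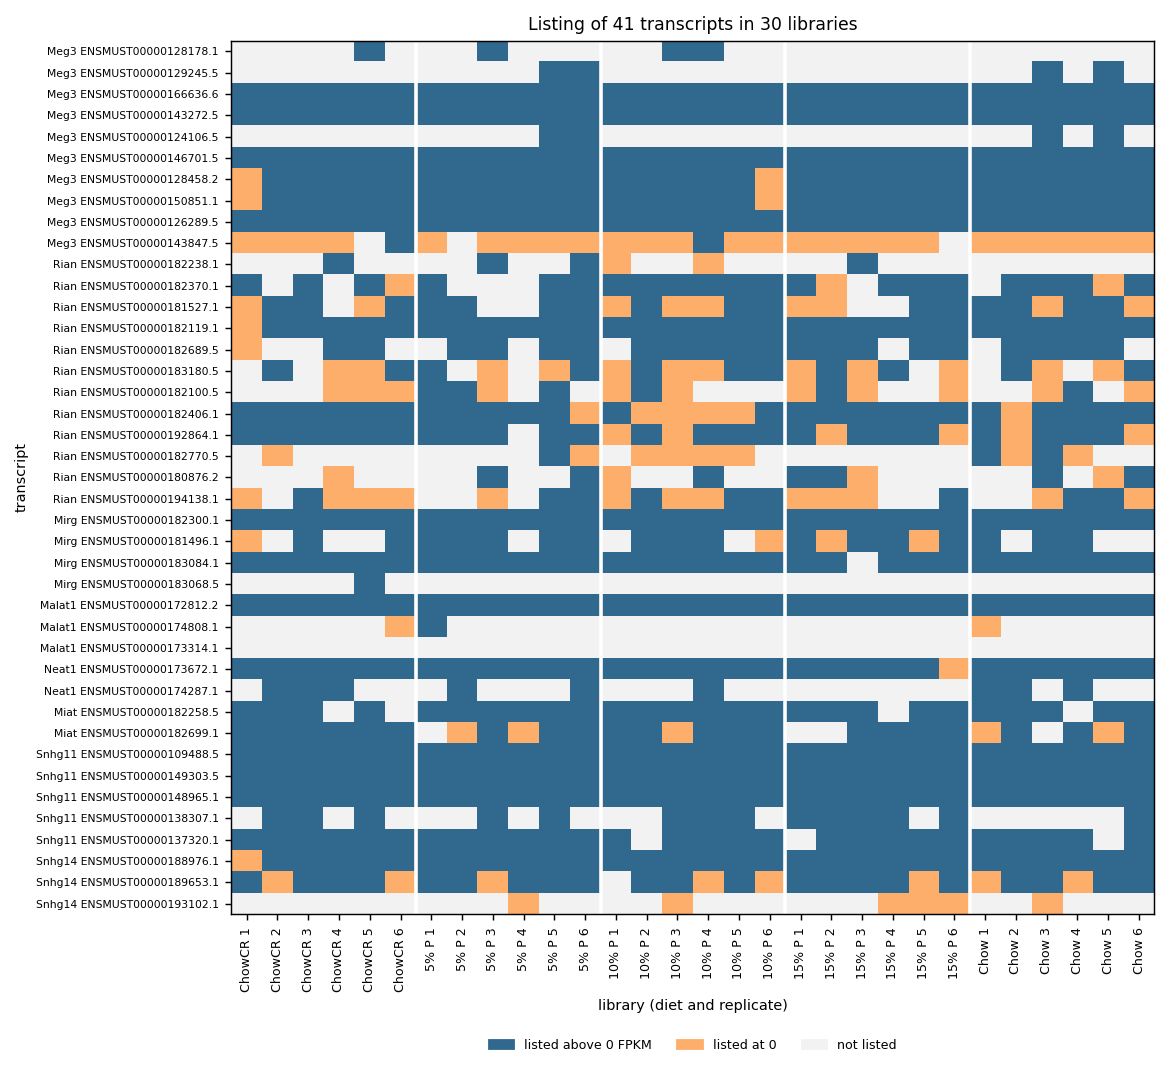
Listing of the 41 transcripts (rows, grouped by gene) in the 30 libraries (columns, by diet), as listed above 0, listed at 0 or not listed. The leading transcripts of Malat1 and Snhg11 were above 0 in all 30 libraries and that of Neat1 in all but 15% P 6, while most of the 12 Rian rows are broken in every diet.

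Rian has 12 transcripts in the table, and most are listed in some libraries only. ENSMUST00000182370 was listed in 23 libraries at a mean of 3.63 FPKM where listed, ENSMUST00000181527 in 25 at 1.399 FPKM, and ENSMUST00000182119, the one tested, in all 30 at 1.31 FPKM. The highest Rian value of the series, 24.5 FPKM in library 5% P 6, was mostly ENSMUST00000182238 at 20.1 FPKM, a transcript listed in 6 libraries with the highest mean where listed of the 12, 4.87 FPKM. Rows named by location from position 109603942 or 109603946 to 109617291, within the Rian span, were listed in 10 libraries at 3.22 to 8.42 FPKM and are not part of these sums.

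For Meg3, 2 transcripts had the highest means among those listed in every library. ENSMUST00000166636, which reaches the annotated 3' end of the gene, was at 11.2 to 45.5 FPKM in all 30 libraries (mean 19.2). ENSMUST00000143272 averaged 17.9 FPKM and was at least 10 FPKM in 21 libraries, but below 1 FPKM in 4, namely ChowCR 5, 5% P 5, 10% P 3 and Chow 3. It ranged from 0.117 to 41.9 FPKM.

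In 3 of these 4 libraries another Meg3 transcript was high. ENSMUST00000128178, of 457 bases, was listed in 4 libraries only and stood at 55.4 FPKM in ChowCR 5 and at 52.0 FPKM in 10% P 3. ENSMUST00000129245 was also listed in 4, and stood at 82.1 FPKM in 5% P 5, the library with the highest Meg3 sum. The longest transcript, ENSMUST00000146701 of 14548 bases, was at least 10 FPKM in 4 libraries, with 35.4 FPKM in ChowCR 1 as its highest value, and had a median of 2.20 FPKM.

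**Figure D5:**
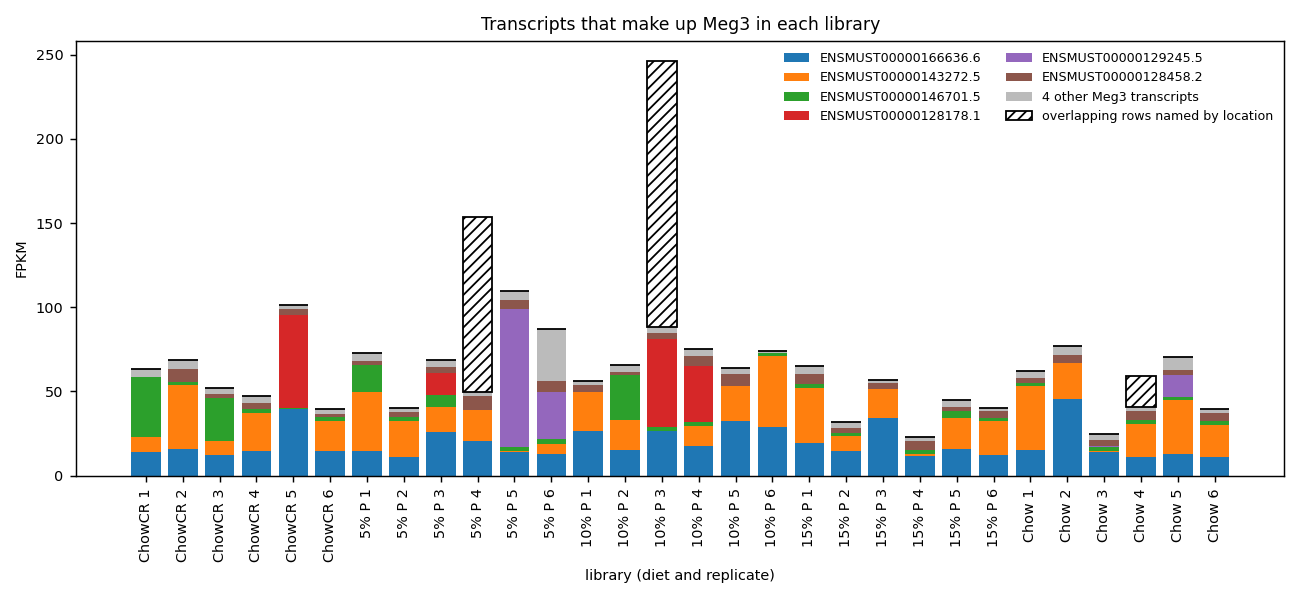
FPKM of the Meg3 transcripts stacked for each library (vertical axis) by diet and replicate, with overlapping rows named by location hatched on top. The leading colour changes between libraries of the same diet, and the hatched part reaches 104 FPKM in 5% P 4 and 158 FPKM in 10% P 3.

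None of the 5 tested Meg3 transcripts passed in any diet. The largest difference of ENSMUST00000146701 was 1.24 ± 0.88 (SE) on the log2 scale in ChowCR (limma, adjusted p = 0.86), at 11.2 ± 15.3 FPKM in ChowCR and 1.69 ± 0.857 FPKM in Chow (SD, n = 6 each). Summed over only the transcripts listed in all 30 libraries, the Meg3 difference of 5% P from Chow was -0.09 in place of 0.47.

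Females and males could be compared over all 30 libraries. Meg3 averaged 52.7 ± 19.2 FPKM in females and 67.2 ± 20.9 FPKM in males (SD, n = 15 each), a log2 difference of -0.37 ± 0.16 (SE) (limma, adjusted p = 0.89). Malat1 averaged 44.01 ± 40.7 FPKM in females and 62.2 ± 34.0 FPKM in males, a difference of -1.15 ± 0.60 (SE) (adjusted p = 0.89). None of the 8 passed, where 0.0206% of all symbols did, and 1 had an unadjusted p under 0.05, as did 5.26% of all symbols. By direction, 6 of 8 were lower in females (median -0.17, beside 0.01 over all symbols), where 51.7% of all symbols were higher in females. Any diet difference at all was tested with limma's F test, in which Meg3 had the smallest unadjusted p of the 8, 0.0361, and 0 of 8 passed, where 0% of all symbols did.

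Whether the RNAs moved together was asked over libraries for 28 pairs, with Malat1 pairs taken in its 23 higher libraries only. That cut was made on the same Malat1 values, while the plan was all 30 libraries, for which these pairs are not given. The r and p of Malat1 pairs hold only within the cut and do not rank evenly with the other pairs. None passed after adjustment over the pairs (permutation test, lowest adjusted p = 0.35 for Pearson and 0.14 for Spearman). The neighbours Meg3 and Rian had r = 0.32 and rho = 0.43 (permutation adjusted p = 0.47 and 0.28, n = 30), with r = 0.43 without the 2 libraries farthest from the median of Meg3 and 0.19 after subtracting diet and sex means. Meg3 and Mirg had r = 0.27, and Rian and Mirg had r = 0.08. The highest rho, 0.51, was between Mirg and Snhg11 (r = 0.39, permutation adjusted p = 0.35 and 0.14, n = 30), with r = 0.41 without the 2 farthest libraries and 0.34 after subtracting the means. The highest r, 0.45, was between Malat1 and Snhg11 (rho = 0.44, permutation adjusted p = 0.35 and 0.30, n = 23), with r = 0.54 without the 2 farthest libraries and 0.52 after subtracting the means. In the 7 libraries low in Malat1 the r of that pair was -0.10, given as a description.

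The symbols whose pattern over the 30 libraries was most like each RNA were taken from all 4848 by Pearson's r, as a description. Neat1 had the closest, with Evi2a at 0.74 and the small nucleolar RNA host Snhg20 at 0.71. Mirg was nearest to a predicted gene known by its clone name at 0.70 and then to Lppr3 at 0.69, and Snhg14 to Reps1 at 0.69. Malat1's nearest was Senp6 at 0.63, which was 0.30 in the 23 higher libraries.

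The others were less close. Snhg11 was nearest to Nap1l2 at 0.62, Meg3 to Far1 at 0.60, Rian to Ddn, a dendritic protein, at 0.60, and Miat to Gm13841 at 0.58. The libraries are the same for every pair, and depth and tissue make-up are shared among them.

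Genes around and beside the 8 did not pass in any diet either. Of 7 other genes of the Dlk1-Dio3 locus 2 were tested, and in the 12 other genes of the Ube3a region 5. Snrpn, which shares its promoter region with Snhg14 and averaged 327 FPKM, had log2 differences from Chow of 0.01 in ChowCR, -0.03 in 5% P, -0.07 in 10% P and -0.08 in 15% P, each with an SE of 0.06. Ube3a itself had 0.65 ± 0.75 (SE) in ChowCR (limma, adjusted p = 0.91) and 1.29 in 15% P (adjusted p = 0.92).

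Of 18 other host genes of small nucleolar RNAs 5 were tested and 0 passed. Snhg20 was lowest in 15% P, at a difference of -0.55 ± 0.19 (SE) (limma, adjusted p = 0.72). Of 28 other long noncoding RNAs known in brain 4 were tested. All 4 were lower in 5% P than in Chow, where 50.4% of all symbols were higher, and none passed. Their median was -0.47, the lowest being the imprinted Peg13 at -2.24 ± 1.04 (SE) (limma, adjusted p = 0.93).

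The proteins that work with Neat1 and Malat1 were looked at in the same way. Of 16 paraspeckle proteins 8 were tested and 0 passed. Relative to Chow 5 of them were higher in ChowCR (median log2 difference 0.17), 6 in 5% P (0.30), 7 in 10% P (0.27) and 6 in 15% P (0.19), where 53.3%, 50.4%, 51.8% and 47.5% of all symbols were higher in the same order. Tardbp, an RNA-binding protein found there, had 0.89 ± 0.30 (SE) in 15% P (limma, adjusted p = 0.72). Of 15 nuclear speckle and splicing factors 9 were tested and 0 passed, with medians between -0.16 and 0.10 over the 4 diets.

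Marker lists of cell types had no gene past the threshold against Chow over all symbols and libraries. The closest was Slc1a3, a glutamate transporter of astrocytes, at 2.68 ± 0.50 (SE) in 10% P (limma, adjusted p = 0.061). It did pass in 10% P with a minimum mean of 5 FPKM (limma, adjusted p = 0.046), over symbols listed in at least 24 libraries (0.041), with only the 10% P and Chow libraries (0.00011), and in males alone (0.037). Leaving out 1 of 5 single libraries also brought it past, at adjusted p = 0.015 to 0.042 (limma). In males alone it passed in 5% P as well (limma, adjusted p = 0.045). No other gene of the lists passed under any of these settings. The share of all symbols that passed under each is not given here. The other astrocyte genes tested had differences in 10% P of 0.10 for Aldoc, 0.17 for Slc1a2, 0.30 for Gfap and 1.76 ± 1.23 (SE) for Gja1.

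Choroid plexus genes, 2 tested, had median log2 differences from Chow of -0.13 in ChowCR, -2.50 in 5% P, -1.39 in 10% P and -0.98 in 15% P. Their summed level had a median of 1813 FPKM in ChowCR, 58.6 in 5% P, 136 in 10% P, 106 in 15% P and 1745 in Chow. Microglia genes, 3 tested, had medians of -0.06 in ChowCR, 0.30 in 5% P, 0.00 in 10% P and 0.45 in 15% P, and endothelial genes, 2 tested, -0.95, -0.53, -0.07 and -0.66 in the same order. The part of these genes in the levels of the 8 RNAs was not tested.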

How the data were processed

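The authors deposited FPKM per transcript in 1 column per library. Per the labels' protocols, RNA was isolated with trizol, poly(A) RNA was made into stranded libraries and read for 100 cycles from a single end. Per the submitters' processing notes, TopHat2 2.0.14, StringTie 1.2.4 and featureCounts 1.4.6 were used with mm10, without a role for each. Replicates are separate mice per the labels, numbered here in accession order. FPKM was summed per symbol over listed transcripts. The 4848 symbols, or 4447 transcripts, listed in all 30 libraries at a mean FPKM of 1 or more were put on the log2(FPKM + 0.5) scale. They were fitted in limma 3.58.1 under R 4.3.3 (eBayes with trend, two-sided, sex as covariate, all libraries), adjusted over the whole table at a threshold of 0.05. The log2 scale understates changes of low genes. Pairs were tested with 100000 resamples.

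Members and lists were chosen with earlier results of these data known. Named transcripts are the up to 4 of highest mean of each member, with others named after their values were seen, and named list genes are the up to 4 of highest mean, with Ube3a, Snhg20, Peg13 and the most extreme genes also chosen after their values were seen. Alternatives were other pseudocounts, filters, scalings, covariates and subsets, and each library left out. Of 43994 Ensembl identifiers 43416 were found in GENCODE M21. The procedure was tested on simulated data (4.61% of its calls were false).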

Additional observations from a re-analysis of the deposited data

Results flagged for a closer look

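Within a diet, the highest library stood far from the next in 3 of 40 groups of 6 by Dixon's ratio, where chance gives about 2. Mirg was at 16.6 FPKM in library 5% P 5, with the next at 10.9 FPKM. Neat1 was at 2.40 FPKM in 5% P 2, with the next at 1.28 FPKM. Snhg11 was at 201 FPKM in ChowCR 5, with the next at 146 FPKM.

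Rows that the table names only by location held signal over Meg3 that the sums leave out. Such a row stood at 104 FPKM in 5% P 4, beside a Meg3 sum of 49.7 FPKM, and at 158 FPKM in 10% P 3, beside 88.3 FPKM. The corresponding value in Chow was 18.3 FPKM, in 1 library.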

How the results depend on the processing

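No member passed under any alternative, with 0.50 as the lowest adjusted p of a diet difference (limma). Directions were less firm. Among 432 values under other settings 20 turned, for 16 of the 32 differences from Chow. In males alone the log2 difference was 1.70 for Malat1 in 5% P, 0.20 for Meg3 in 15% P, -0.35 for Miat in 15% P, -0.022 for Miat in ChowCR, 0.13 for Neat1 in 10% P, 0.24 for Neat1 in ChowCR, 0.047 for Rian in ChowCR and 0.42 for Snhg14 in 5% P. In females alone it was -1.58 for Malat1 in ChowCR, -0.31 for Rian in 15% P, -0.38 for Rian in 5% P and 0.071 for Snhg14 in ChowCR. With Ttr as covariate it was 0.11 for Neat1 and 0.074 for Snhg14 in 5% P. Over transcripts listed in all 30 libraries it was -0.086 for Meg3 and -0.17 for Rian in 5% P. Overlapping rows named by location, added after seeing the data, counted as 0 where not listed, and no Chow library lists one over Snhg14. With them, Snhg14 could only move up against Chow, and was at 0.79 in ChowCR, 1.14 in 5% P, 0.75 in 10% P and 0.85 in 15% P. The cause was not tested.

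With each library left out in turn, 26 of 960 values turned, for 10 differences. The ranges were -0.63 to 0.75 for Malat1 in ChowCR and -1.02 to 0.36 in 5% P, -0.14 to 0.29 for Miat in ChowCR, -0.34 to 0.016 for Mirg in ChowCR and -0.39 to 0.26 in 15% P, -0.11 to 0.074 for Neat1 in ChowCR, -0.081 to 0.63 for Rian in 5% P and -0.19 to 0.34 in 15% P, and -0.49 to 0.18 for Snhg14 in ChowCR and -0.32 to 0.25 in 5% P. The other 14 differences turned under no setting. No paired analysis was possible because the labels share no replicate numbers between groups. Read counts were not used here, so counting error cannot be given, and the levels of Neat1, Miat and Snhg14, near 1 to 2 FPKM, are the least certain.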
